A study of Mus musculus with 6 samples.

Results

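Gdf15 and Inhba, which encode secreted ligands of the TGF-beta superfamily, were followed across 6 RNA-seq libraries of reperfused mouse heart. They are 2 of the 149 genes in the table that the authors deposited, and were picked by gene symbol from that table. The table itself was selected on the difference described here. Its genes differ between the groups by 1 or more on the log2 scale in either direction, and the largest adjusted p-value (FDR) among them is 0.0487. The group differences of both genes are therefore a description, and no new p-value is given for them.

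All mice were male C57BL/6 of wild-type genotype, and the sources used here do not give their ages. Both groups underwent ischaemia-reperfusion (IR), with the left anterior descending coronary artery closed for 45 min and reopened for 24 h. The IR group had 3 libraries from this procedure alone. The TMAO+IR group had 3 libraries from mice given 0.12% trimethylamine N-oxide (TMAO), an oxidised product of gut bacterial choline metabolism, in the drinking water for 4 weeks beforehand and during the procedure. Unoperated or sham-operated hearts were not analysed here, so every value refers to injured myocardium. RNA came from the injured region, and the labels do not say whether libraries come from separate animals. The spread between libraries may thus be technical. The tissue label could be checked with only 1 of 15 cardiomyocyte markers, Myh7, which was detected in every library. The other markers were not analysed here.

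TGF-beta superfamily ligands are made as precursors, cleaved, and secreted as disulfide-linked dimers. Most bind pairs of type I and type II receptor kinases, which phosphorylate SMAD transcription factors. Inhba encodes the beta-A subunit, which forms activin A with itself and inhibin A with the alpha subunit encoded by Inha. Activin A signals through SMAD2 and SMAD3, is neutralised by follistatin, and is produced in inflamed and injured tissue. Gdf15 encodes a distant member of the superfamily that acts through the brainstem receptor GFRAL and its co-receptor RET to reduce food intake. It is induced by cellular stress, through the integrated stress response and p53, and is released by the injured heart.

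Gdf15 (ENSMUSG00000038508) is on chromosome 8, minus strand, from 70629393 to 70632456 (GRCm38). It has 2 annotated protein-coding transcripts, Gdf15-201 of 1545 bp with 2 exons and Gdf15-202 of 1380 bp with 3 exons. They start at different positions. Exon 2 of Gdf15-202 (70631333 to 70631624) lies within exon 1 of Gdf15-201 (70631333 to 70632095). The last exon of Gdf15-202 (70629394 to 70630174) lies within that of Gdf15-201 (70629393 to 70630174). Inhba (ENSMUSG00000041324) is on chromosome 13, plus strand, from 16011851 to 16031621. Its transcripts differ far more in length, with 6390 bp and 5 exons for Inhba-201 and 1529 bp and 3 exons for Inhba-202, whose last exon ends within the long final exon of Inhba-201. On the opposite strand the antisense gene Gm48444 overlaps Inhba by 6240 bp, and the pseudogene B230303A05Rik by 11573 bp. These overlaps are between whole gene spans, introns included, and whether exons overlap was not tested. The sources used here do not mention strand-specific counting. Reads from any exon sequence that Inhba shares with these 2 genes may therefore not be told apart. No other annotated gene overlaps Gdf15.

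The promoters are shown because both genes were higher in the same group, so a reader can compare the sequences next to their start sites. RefSeq windows of GRCm38.p6 cover 250 bases before to 50 bases after each start, and hold 2 starts of Gdf15 and 1 of Inhba. Printed 5′ to 3′ on the strand of the gene are the 250 bases before the start of Gdf15-202 (chr8:70632457-70632706), the 54 bases before the start of Gdf15-201 that lie in no annotated exon (chr8:70632096-70632149), and the 250 bases before Inhba (chr13:16011601-16011850). Capitals mark matches to the SMAD box CAGAC, the CCAAT box CCAAT or the TATA box TATAAA on either strand.
Gdf15-202: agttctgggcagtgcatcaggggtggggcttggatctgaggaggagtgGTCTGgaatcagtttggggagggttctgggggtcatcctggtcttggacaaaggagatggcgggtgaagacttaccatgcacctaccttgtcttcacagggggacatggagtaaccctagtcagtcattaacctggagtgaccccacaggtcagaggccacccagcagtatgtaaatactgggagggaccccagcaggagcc
Gdf15-201: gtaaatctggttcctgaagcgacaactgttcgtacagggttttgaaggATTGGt
Inhba: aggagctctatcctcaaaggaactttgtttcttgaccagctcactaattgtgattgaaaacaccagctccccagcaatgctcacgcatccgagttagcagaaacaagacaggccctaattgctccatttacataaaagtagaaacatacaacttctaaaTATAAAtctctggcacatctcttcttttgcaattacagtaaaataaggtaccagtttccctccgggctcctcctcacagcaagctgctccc

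The Gdf15 promoters are richer in G and C, at 56.4% over 250 bases for either start, than that of Inhba at 43.2%, and the median of all 32851 windows was 52.4%. For the start of Gdf15-201, only 54 of those 250 bases lie in no annotated exon, and the rest lie in exon 1 of Gdf15-202. The SMAD box matched both Gdf15 windows and not that of Inhba, and 49.6% of all windows of 300 bases hold it. For Gdf15-201 the match begins 116 bases before the start, within exon 1 of Gdf15-202, and lies outside the printed bases. A CCAAT match begins 6 bases before the start of Gdf15-201 and is found in 37.4% of all windows. A TATA match begins 91 bases before the start of Inhba and is found in 13.6%. The searches for AP-1 (TGANTCA), the cyclic AMP response element (TGACGTCA) and its TGACG core, the C/EBP-ATF element (TGATGNAA), the antioxidant element (TGACNNNGC), the heat shock element (GAANNTTC), the AHR element (TNGCGTG), EGR1 (GCGNGGGCG) and the GC box (GGGCGG) matched none of the 3 windows. Both strands were searched, and TGACG is also part of TGACGTCA. AP-1 letters occur in 7.81% of all windows and C/EBP-ATF letters in 3.97%.

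Gdf15 was higher in the TMAO+IR libraries. It had 36, 67 and 92 counts in IR replicates 1, 2 and 3, and 146, 267 and 95 in TMAO+IR replicates 1, 2 and 3. Scaled to counts per 1000000 fragments of recovered library size (CPM), the IR libraries stood at 1.74, 3.05 and 4.10 and the TMAO+IR libraries at 7.95, 12.4 and 4.56. TMAO+IR replicate 2 was highest, IR replicate 1 lowest, and the groups did not overlap, but TMAO+IR replicate 3 lay just above IR replicate 3. The exact Poisson 95% intervals of those neighbours, 3.69 to 5.58 and 3.30 to 5.03 CPM, overlapped, and they cover counting error only. The mean went from 2.96 ± 1.18 to 8.30 ± 3.93 CPM (SD, n = 3 per group). This is a log2 fold change of 1.48 ± 0.33 (SE) in edgeR, or 2.80-fold. In bulk tissue, more cells that express a gene and more RNA per cell cannot be told apart.

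Inhba was also higher in the TMAO+IR libraries, with the larger fold change of the pair, a difference that was not tested. It had 67, 104 and 45 counts in IR replicates 1, 2 and 3 and 256, 269 and 123 in TMAO+IR replicates 1, 2 and 3. These are 3.24, 4.73 and 2.01 CPM in IR and 13.9, 12.5 and 5.91 CPM in TMAO+IR. TMAO+IR replicate 1 was highest and IR replicate 3 lowest, without overlap of the groups. The closest libraries were IR replicate 2 (interval 3.86 to 5.73 CPM) and TMAO+IR replicate 3 (4.91 to 7.05), whose counting intervals overlapped as well. The mean went from 3.32 ± 1.36 to 10.8 ± 4.28 CPM, a log2 fold change of 1.69 ± 0.34 in edgeR, or 3.24-fold. In this fit every gene received the spread of the common trend, so neither SE reflects the spread of the gene itself. The SD of log2 CPM within groups was 0.66 for Gdf15 and 0.63 for Inhba.

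**Figure D1:**
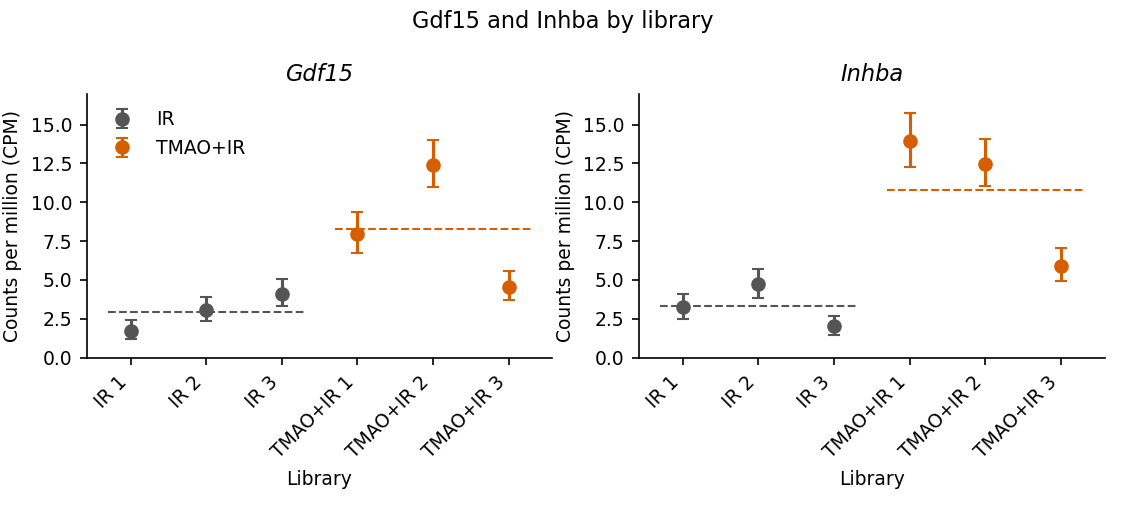
CPM (y axis from 0) of Gdf15 (left) and Inhba (right) in each of the 6 libraries (x axis). Points are libraries with exact Poisson 95% intervals and dashed lines are group means, 2.96 and 8.30 for Gdf15 and 3.32 and 10.8 for Inhba. TMAO+IR replicate 3 is the lowest of its group for both genes, and IR replicate 3 is the highest IR library for Gdf15 and the lowest for Inhba.

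In the authors' deposited table Gdf15 had an FDR of 0.0239 and Inhba one of 0.00167, and by p-value they ranked 127 and 25 among the 149 genes. Its first gene has an FDR 12721 times its p-value, which implies that 12721 genes were tested, of which the 149 make up 1.17%. Both genes are among the 122 listed genes higher in TMAO+IR, 81.9% of the list. Groups did not overlap in CPM in 97.3% of listed genes and in FPKM in 94.6%, so the lack of overlap in both members is the usual state of the list. By edgeR fold change Inhba ranked 15 and Gdf15 25 of all listed genes, and the median of the list was 1.16 on the log2 scale.

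The members differed in which libraries carried their values. Within IR, Gdf15 was highest in replicate 3, which holds for 7 of the 122 higher genes, whereas replicate 2 was the highest IR library for 88. Inhba was lowest in IR replicate 3, as were 79 of the 122. Within TMAO+IR, replicate 3 was lowest for both, as for 97 of the 122. Gdf15 peaked in TMAO+IR replicate 2, like 65 of these genes, and Inhba in replicate 1, like 46. The complete order of the 6 libraries for Inhba was shared by 19 other higher genes, and that of Gdf15 by 3. All listed genes together took 0.33% of the fragments in IR replicate 3, the least, and 1.08% in TMAO+IR replicate 2, the most. Recovered depth ranged from 18370997 to 22442237 fragments and was lowest in TMAO+IR replicate 1. The part of these library differences in the fold changes was not tested, and the log2 fold changes without each library are given in the plot by setting.

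On the per-length scale (FPKM, fragments per kilobase of transcript and 1000000 fragments), the values of Gdf15 were 1.23, 2.21 and 2.90 in IR replicates 1, 2 and 3 and 5.69, 8.64 and 3.28 in TMAO+IR. Those of Inhba were 1.25, 2.02 and 0.47 in IR, against 6.67, 5.82 and 2.31 in TMAO+IR. The order of the libraries was the same in FPKM as in CPM for both genes, and the groups again did not overlap. In mean FPKM over IR, Gdf15 (2.11 ± 0.84) ranked 76 of the 149 genes, between Bicdl1 (2.16 ± 0.31) and Lif (2.06 ± 1.14). In TMAO+IR it ranked 60 (5.87 ± 2.68), between Trim30a (6.27 ± 1.55) and Cd274 (5.77 ± 0.18). Inhba ranked 96 in IR (1.25 ± 0.78), between Gm14308 (1.33 ± 0.45) and Flvcr1 (1.19 ± 0.15), and 66 in TMAO+IR (4.93 ± 2.31), between Far1 (5.18 ± 0.98) and Egr3 (4.87 ± 1.60). Each of these differences between neighbours was smaller than the SD of the member beside it. Both members varied more than most listed genes. Their coefficients of variation in CPM were 39.9% (Gdf15) and 41.0% (Inhba) in IR, where the median of the list was 29.8%, and 47.3% and 39.7% in TMAO+IR, where it was 21.2%. In TMAO+IR only 10 listed genes had a larger coefficient than Gdf15.

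The ratio of Gdf15 to Inhba FPKM within a library was 0.984, 1.09 and 6.17 in IR replicates 1, 2 and 3, and 0.853, 1.48 and 1.42 in TMAO+IR. IR replicate 3 thus stood apart from the other 5 libraries, in which the FPKM of the members were within 1.48 times of each other. Per kb of the longest transcript, the counts gave Gdf15 2.22 to 4.11 times the level of Inhba in those libraries and 8.46 times in IR replicate 3. On the log2 scale the mean ratio was 0.91 ± 1.49 in IR and 0.28 ± 0.44 in TMAO+IR (SD, n = 3), so the groups did not differ by more than the spread between libraries. Without IR replicate 3 the IR mean was 0.05. By counts alone IR replicate 3 was the only library with clearly more Gdf15 than Inhba (ratio 2.04), and the ratio was between 0.537 and 0.993 in the remaining libraries.

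Part of that ratio arises between the count and FPKM columns of Inhba. Dividing the count by the FPKM and the recovered library size gives the transcript length that the authors' FPKM implies. For Gdf15 this was 1379 to 1435 bp in all 6 libraries, close to both of its annotated transcripts. For Inhba it was 2592, 2341 and 4266 bp in IR replicates 1, 2 and 3 and 2089, 2146 and 2557 bp in TMAO+IR. All 6 Inhba values lie between the 1529 bp of Inhba-202 and the 6390 bp of Inhba-201, with IR replicate 3 closest to the long transcript. Its highest value was 2.04 times its lowest, the second widest range among 87 genes, namely those with at least 1 FPKM in every library and Inhba itself. The median gene had a ratio of 1.07, Gdf15 one of 1.04, and 8 genes exceeded 1.5. The mean implied length of Inhba was 3066 ± 1047 bp in IR and 2264 ± 255 bp in TMAO+IR, and the groups overlapped. Accordingly the FPKM difference of Inhba, a log2 fold change of 1.98 in the authors' deposited table, was larger than the 1.69 from counts. For Gdf15 the same comparison gave 1.47 and 1.48. The sources used here do not say how fragments were assigned to transcripts, and the share of each Inhba transcript was not tested.

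**Figure D2:**
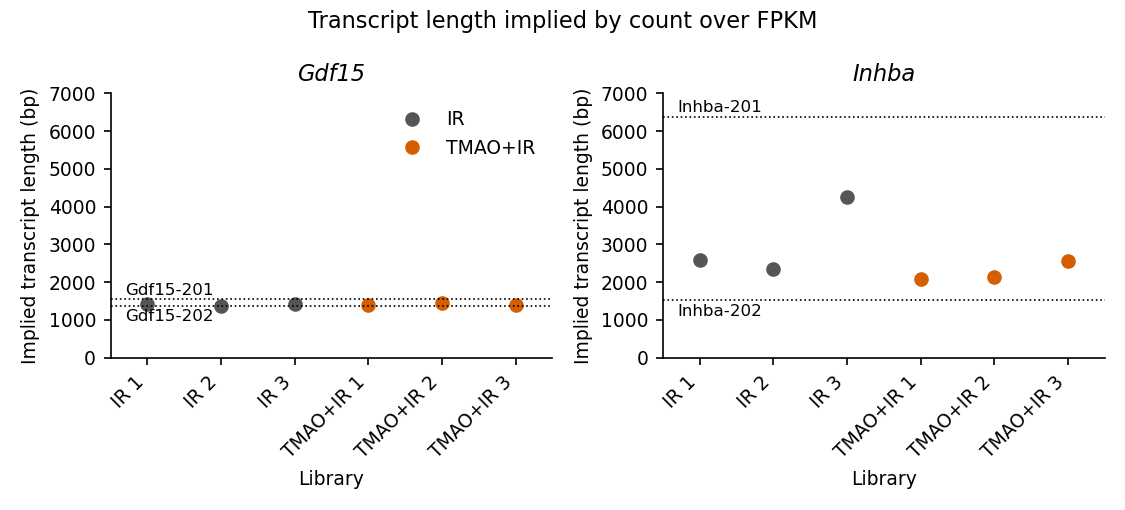
Transcript length in bp implied by count, FPKM and recovered library size (y axis from 0) in each library (x axis), for Gdf15 (left) and Inhba (right); dotted lines are the lengths of the annotated transcripts. Gdf15 stays between 1379 and 1435 bp, while Inhba ranges from 2089 bp in TMAO+IR replicate 1 to 4266 bp in IR replicate 3.

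The lists of genes below are described by how many of their members are in the table, beside 1.17% of the implied 12721 tested genes, and by how many of those were higher, beside 81.9% of the whole table. How many members of a list were among the tested genes is not known, so the shares have different denominators. Of 33 TGF-beta superfamily ligands, Gdf15 and Inhba were the 2 listed (6.06%), both higher. None of the 21 receptors and co-receptors and none of the 10 proprotein convertases and ligand-processing proteases was listed. Of 23 extracellular binders and antagonists, 1 was listed (4.35%). This was Thbs1, a matrix glycoprotein that activates latent TGF-beta, with 413, 838 and 362 CPM in the IR libraries and 1439, 1630 and 991 CPM in TMAO+IR. Skil, which encodes the SMAD repressor SnoN, was the 1 listed of 16 SMADs and their regulators (6.25%). It had 17.7, 17.3 and 12.4 CPM in IR and 36.0, 39.3 and 27.6 CPM in TMAO+IR, without overlap. Among 20 SMAD2/3 target genes, Skil and the matrix glycoprotein gene Tnc were listed (10.0%), both higher. Tnc went from 8.61, 16.5 and 8.42 CPM to 28.0, 34.8 and 21.0 CPM. Log2 fold changes in edgeR were 1.33 ± 0.43 for Thbs1, 1.12 ± 0.38 for Skil and 1.32 ± 0.37 for Tnc, against 1.16 for the median listed gene. Listed members had to pass the limits of the table, and unlisted genes were not analysed here, so these counts say nothing of the unlisted ones.

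Lists for the integrated stress response, p53 targets, immediate early genes and heat shock chaperones also had genes in the table. The part of these genes in the values of Gdf15 was not tested. Of 45 genes in the list for the integrated stress response and unfolded proteins, Gdf15 and Slc7a11 were listed (4.44%), both higher. Slc7a11, the cystine transporter, had 2.27, 3.46 and 1.20 CPM in IR and 5.28, 4.97 and 5.86 CPM in TMAO+IR. It was highest in TMAO+IR replicate 3, where Gdf15 was lowest of its group. Of 25 p53 target genes, Gdf15 and Pmaip1 were listed (8%), both higher. Pmaip1, which encodes the apoptosis regulator NOXA, stood at 0.387, 0.637 and 0.401 CPM in IR and 1.85, 1.76 and 1.58 CPM in TMAO+IR, with a far smaller spread within TMAO+IR than Gdf15. Of 28 immediate early genes, which encode fast-induced transcription factors, 8 were listed (28.6%, beside 1.17% of tested genes) and all 8 were higher, beside 81.9% of the table (median log2 fold change 1.25). Of 20 heat shock chaperones, 3 were listed (15.0%) and all 3 higher (Hsph1, Hsp90aa1 and Dnaja1, median 1.89). The median of the whole table was 1.16, and nothing is read from these shares, since the table was selected on this contrast.

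Among 27 secreted factors of the injured heart, 7 were listed (25.9%, beside 1.17% of tested genes), 6 of them higher and 1 lower, beside 122 higher and 27 lower in the table. Inhba and Gdf15 had the largest fold changes of the 7. The others were Lif (log2 1.25 ± 0.36 in edgeR), Il33 (1.24 ± 0.37), Il6 (1.13 ± 0.39), Cxcl5 (1.12 ± 0.38) and Ctf1 (-1.21 ± 0.33), the gene of cardiotrophin 1. Differences between these values and those of the members were not tested. In the annotation deposited with the table, Gdf15 and Inhba both carry the term for cytokine and receptor interaction, which 10 listed genes carry, 9 higher and 1 lower. The remaining 3 are Ppbp, Csf2rb and Ccr2, with log2 fold changes of 1.19 ± 0.33, 0.75 ± 0.38 and 1.49 ± 0.34. Only Inhba and Thbs1 carry the TGF-beta signalling pathway term. Of 14 process terms on Gdf15 and 39 on Inhba, 5 were common to both, among them SMAD signal transduction, which 4 listed genes carry.

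The library profiles of the members resembled those of different genes. Likeness was the root mean square difference over the 6 libraries of log2(CPM + 0.1) centred on the mean of each gene, among 141 genes with a mean of at least 20 counts. Nearest to Gdf15 were Fos (0.19) and Jun (0.25), which encode subunits of the AP-1 transcription factor, then the co-chaperone gene Dnaja1 (0.28), the zinc finger factor gene Egr1 (0.29) and Edn1 (0.31), which encodes the vasoconstrictor endothelin 1. The median listed gene was 0.63 away from Gdf15. Fos stood at 67.8, 127 and 129 CPM in IR and 272, 430 and 218 CPM in TMAO+IR, with its peak in the same library as Gdf15. Nearest to Inhba were the Ikaros-family gene Ikzf4 (0.23), the predicted gene Gm4070 (0.24), the ubiquitin ligase gene Herc6 (0.25), the GTPase gene Gvin1 (0.25) and the chemokine receptor gene Ccr2 (0.28), and the median listed gene was 0.47 away. Ikzf4 stood at 3.05, 5.91 and 2.90 CPM in IR and 12.4, 13.3 and 6.00 CPM in TMAO+IR. Gm4070 and Gvin1 have near-identical copies, so their counts may be uncertain, and how reads were assigned among copies was not tested. Gdf15 and Inhba were 0.64 apart, and each was far from the nearest of the other, with Inhba at place 72 for Gdf15 and Gdf15 at place 108 for Inhba.

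The neighbours depended in part on single libraries. All 5 genes nearest Gdf15 were kept when IR replicate 2 was left out, and likewise for replicates 1 and 3 of TMAO+IR. Without TMAO+IR replicate 2, of the 5 nearest to Gdf15 only Fos and Edn1 were among the nearest 5. Without IR replicate 1 or IR replicate 3, Fos, Jun and Dnaja1 were. Centred within each group, Fos, Jun, Dnaja1 and Egr1 were among the nearest 5. This centring removes the group difference, but the genes compared were still those of the selected list. For Inhba, 4 of the 5 were kept without IR replicate 2 or TMAO+IR replicate 2, and the centring within groups kept Ikzf4 and Herc6. Without TMAO+IR replicate 1 only Herc6 was kept, and without TMAO+IR replicate 3 only Gm4070 and Ikzf4. Gm4070, Gvin1 and Ikzf4 were kept without IR replicate 1, and Ccr2, Gm4070 and Ikzf4 without IR replicate 3.

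**Figure D3:**
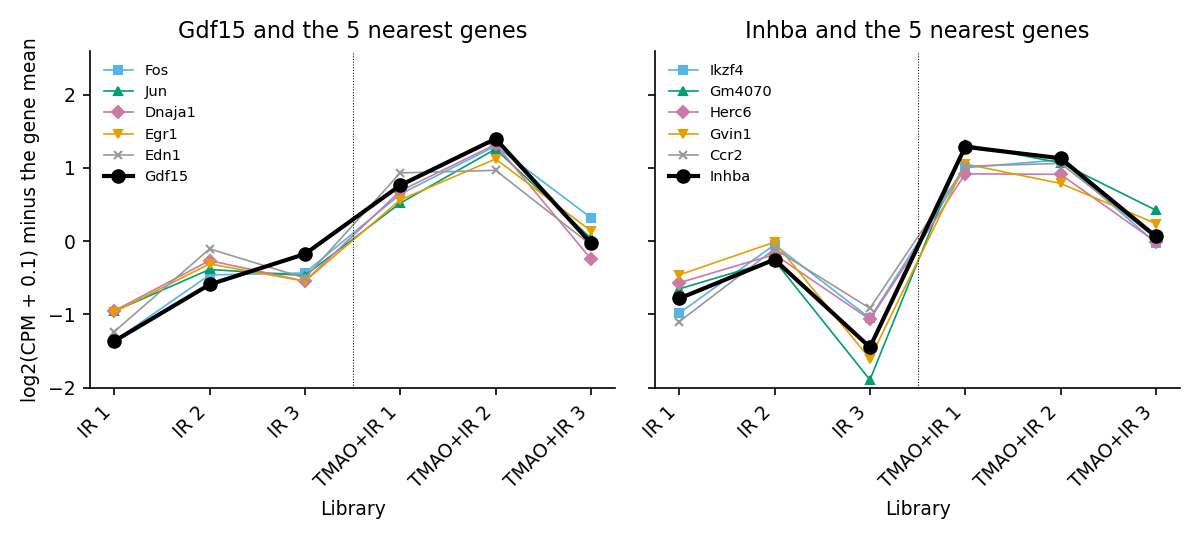
Centred log2(CPM + 0.1) (y axis) in the 6 libraries (x axis; lines only join the points of a gene) for Gdf15 with its 5 nearest genes (left) and Inhba with its 5 nearest (right). Gdf15 and its neighbours peak in TMAO+IR replicate 2 and are lowest in IR replicate 1, while Inhba is lowest in IR replicate 3 and highest in TMAO+IR replicate 1.

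Markers of cells that could contribute these transcripts were listed for 6 of 9 marker lists. Of 16 monocyte and macrophage markers, Ccr2 and Chil3 were listed (12.5%, beside 1.17% of tested genes) and higher, and their summed level was 1.06 to 1.83 FPKM in IR and 2.77 to 6.11 FPKM in TMAO+IR. The neutrophil list had Mmp8 and Slfn4 of 14 (14.3%), both higher, with 4.40 to 8.06 and 12.2 to 14.6 FPKM. Of 12 endothelial markers only Ackr1 was listed (8.33%), at 0.80 to 0.88 and 1.83 to 2.58 FPKM, and of 15 cardiomyocyte markers only Myh7 (6.67%), at 6.29 to 12.5 and 27.5 to 56.5 FPKM. Sfrp2 of 14 fibroblast markers (7.14%) was lower in TMAO+IR (0.84 to 1.94 against 0.42 to 0.70 FPKM), as was Slc4a1 of 7 erythrocyte markers (14.3%; 0.23 to 0.49 against 0.08 to 0.16 FPKM). No smooth muscle and pericyte, lymphocyte or mesothelial marker was listed. None of the listed markers was at 0 in any library. Their part in the values of Gdf15 and Inhba was not tested.

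**Figure D4:**
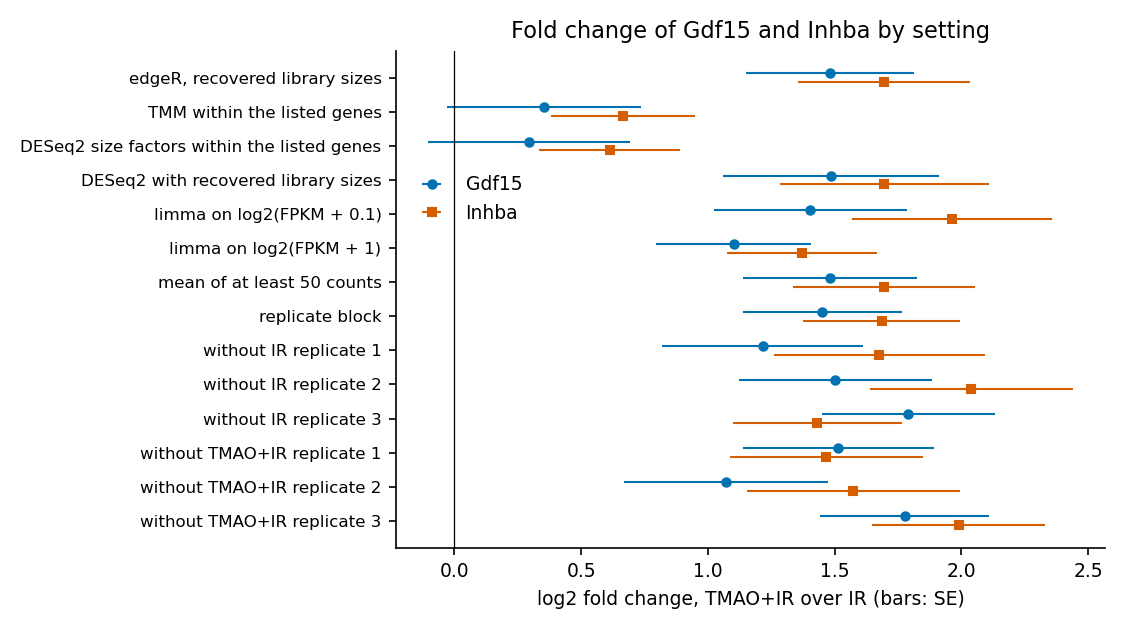
Log2 fold change of TMAO+IR over IR (x axis, bars are SE) of Gdf15 and Inhba under each analysis setting (y axis). All values are above 0, from 0.29 for Gdf15 and 0.61 for Inhba with DESeq2 size factors computed within the listed genes to 1.79 for Gdf15 without IR replicate 3 and 2.04 for Inhba without IR replicate 2. Only the scalings within the listed genes could have changed the sign, since the groups of both genes did not overlap.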

How the data were processed

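Poly(A)-selected RNA of 6 libraries was sequenced, 3 per group, and groups and replicate numbers come from the sample titles. The authors deposited whole-number counts per gene without normalization, and FPKM values to 2 decimals, per the file headers. The deposited table also gives mean FPKM, the log2 fold change of these means, p-values and FDR. The submitters' processing notes name the build GRCm38 and, without roles, edgeR, DESeq2, StringTie 1.3.1, HISAT2, Bowtie2 2.2.8 and fastp 0.18.0. The sources used here do not say which tool gave the p-values. Column T-IR was taken as TMAO+IR, the only group besides IR.

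Relative library sizes were recovered from count over FPKM in the 86 genes at 1 FPKM or more in all libraries, and absolute sizes from 12 of these with a single transcript in GENCODE M21 (GRCm38), which all 149 identifiers matched. Counts of all 149 genes were fitted with edgeR 4.0.16 (quasi-likelihood, R 4.3.3), with these sizes and without a filter. Simulated counts with a single dispersion were used to check the median fold changes of this fit, but not its SE. No p-value was computed, since the table was selected on this contrast. DESeq2 1.42.0 and limma 3.58.1 were alternatives. Named are the members, listed genes of 20 gene lists, the 5 nearest genes and the neighbours in mean FPKM. Members and lists were chosen with earlier results of these data known. Protein sequences were not used here.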

Additional observations from a re-analysis of the deposited data

How the results depend on the processing

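Both members had log2 fold changes above 0 under every setting run. These were 2 other scalings, DESeq2, and limma on log2(FPKM + 0.1) and log2(FPKM + 1). A minimum mean of 50 counts, the replicate block and leaving out each library were also run. Both genes were listed for this difference, and their groups did not overlap. Only the 2 other scalings could therefore have changed the sign. Scaling within the listed genes shifted the median listed gene by -1.02 (TMM) and -1.08 (DESeq2 size factors) on the log2 scale, since most listed genes were selected as higher. Gdf15 then stood at 0.35 ± 0.38 and 0.29 ± 0.40 (SE), below its SE in both. Inhba stood at 0.66 ± 0.28 and 0.61 ± 0.28, above its SE in both. The list medians were 0.14 and 0.09, below the values of both members. With single libraries left out, Gdf15 ranged from 1.07, when TMAO+IR replicate 2 was omitted, to 1.79, when IR replicate 3 was, and Inhba from 1.43 (IR replicate 3 omitted) to 2.04 (IR replicate 2 omitted).

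The log2 ratio of Gdf15 to Inhba in TMAO+IR was 1.65 from counts per kb of the longest transcript, against 0.28 from FPKM, and in IR 1.88 against 0.91, since the longest Inhba transcript exceeds the length that its FPKM implies. Single libraries left out gave 0.14 to 0.54 there and 0.05 to 1.38 in IR. With the replicate block the values were 1.45 for Gdf15 and 1.69 for Inhba. The labels name no pairs, and deviations of same-numbered libraries correlated at -0.32, 0.34 and -0.08 over 117 genes, and only the replicate 2 libraries correlated best with their own number, so the numbers were not taken as pairs. The settings for the nearest genes were chosen after seeing the data. At 36 to 269 counts per library, the counting intervals of the closest libraries of the groups overlapped for both genes. Such overlap is no test of a difference, and the difference between those libraries was not tested.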
